A study of Saccharomyces cerevisiae with 109 samples.

Results

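Unstressed rpd3Δ cells were set directly against unstressed wild-type cells on 3 of the 109 arrays of the series. The rpd3Δ strain (labelled BYrpd3) is a deletion strain in which RPD3 was replaced with KANMX. The wild type is BY4741, and both strains are MATa and share the deletions his3Δ1, leu2Δ0, met15Δ0 and ura3Δ0. Both were grown in YPD at 30°C with no stress. Each array held RNA of both strains, with rpd3Δ RNA labelled with Oyster 550 and wild-type RNA with Oyster 650 on replicates 1 and 2, and the dyes exchanged on replicate 3. The labels do not say whether the replicates came from separate cultures, so the p-values below measure the spread between these arrays, which may be technical. A ratio reads a transcript's share of each strain's RNA, so fewer cells that express a gene and less of its RNA per cell cannot be told apart. Most other arrays of the series compare stressed with unstressed cells, and of these the 3 rpd3Δ and 8 wild-type arrays at 30 min of 0.4 mM H2O2 are used at the end.

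Rpd3p is the catalytic subunit of a histone deacetylase that acts in a large and a small complex, Rpd3L and Rpd3S. Rpd3L is brought to promoters by DNA-binding proteins, among them Ume6p, which holds meiotic, inositol and arginine breakdown genes low in growing cells. Rpd3S acts within transcribed genes. A yeast strain that lacks RPD3 is also known for altered silencing near chromosome ends.

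Every value is the log2 ratio of rpd3Δ over wild-type RNA as deposited, with the direction the titles give, so 1 stands for a level 2-fold higher in rpd3Δ cells and -1 for a level 2-fold lower. Of 6297 genes in the table, 5520, 5307 and 5030 were measured on replicates 1, 2 and 3, and the 4426 genes measured on all 3 arrays were tested with limma against a ratio of 0, with p-values adjusted over all of them by the method of Benjamini and Hochberg. RPD3 (YNL330C) itself was measured on replicate 3, at -2.56, and not on replicates 1 and 2. This is the array with the exchanged dyes, and it puts the deleted gene lower in the strain that lacks it. Beside RPD3 on chromosome XIV, THI12 had ratios of -1.96, -1.40 and -0.13, AAD14 of -0.23, -0.50 and -0.21 and PEX6 of 0.04, -0.03 and -0.40, and none of these was called. On other chromosomes, THI13 had -2.13 and -0.90 on replicates 1 and 3, and THI5 and THI11 had -0.97 and -0.96 on replicate 3. These THI genes were chosen after their values were seen, and whether probes for THI genes bind each other's RNA was not tested. MDJ2, on the other side of RPD3, had -0.32 and 0.26 on replicates 1 and 3. Farther along on the side of AAD14 and THI12, SNZ2 had -3.37 and -1.49 on replicates 1 and 3, and SNO2 had -0.92 on replicate 3, both genes chosen after their values were seen. Of the markers deleted in both strains, HIS3 had 0.34, 0.36 and -0.03 and was not called, and URA3 had -0.59 and -0.22 on replicates 1 and 3.

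Of the 4426 genes, 2261 had one sign on all 3 arrays, 1157 above 0 (26.1%) and 1104 below 0 (24.9%). At a false discovery rate under 0.05, limma called 112 genes higher (2.53%) and 43 lower (0.972%) in rpd3Δ cells, 3.5% in all. These shares are the background against which each gene group below is read. The genes called higher had a median ratio of 1.16 (2.24-fold) and those called lower of -1.45 (2.73-fold lower). Replicates 1 and 2 gave the same sign for 83.0% of the genes tested, but replicate 3 shared its sign with replicate 1 for 59.9% and with replicate 2 for 59.2%. Among genes over 2-fold from 0 on both arrays of a pair, replicates 1 and 3 had the same sign for 94 of 97 and replicates 2 and 3 for 92 of 95. These pairs leave out genes that were over 2-fold on 1 array alone. Of the 227 genes over 2-fold from 0 in the mean of replicates 1 and 2, replicate 3 had the same sign for 181 (79.7%), and of the other 4199 for 2493 (59.4%). Without replicate 3, the remaining pair shared its dye orientation and limma called 802 genes higher and 740 lower, which include all 155. The reverse pattern, over 1.5-fold one way on replicates 1 and 2 and over 1.5-fold the other way on replicate 3, was found in 14 genes higher and 6 lower on the first pair. Over 1.5-fold in one direction on every array were 150 genes higher and 72 lower. A further 1551 genes were measured on 1 or 2 arrays and were not tested. Where such a gene is named, its values are given as they stand.

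**Figure D1:**
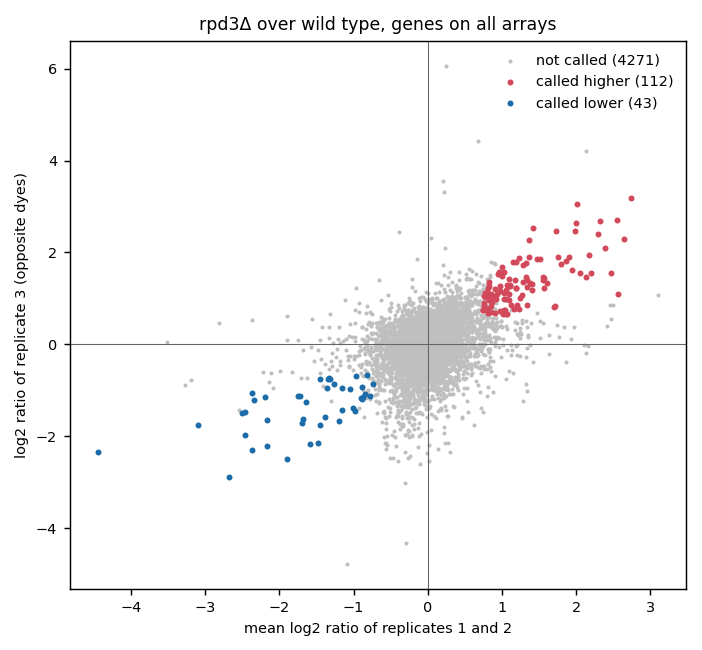
Log2 ratio of rpd3Δ over wild type on replicate 3 (vertical axis) against the mean of replicates 1 and 2 (horizontal axis) for the 4426 genes measured on all 3 arrays. The 112 genes called higher (red) lie at the upper right and the 43 called lower (blue) in the lower left, while the 4271 genes not called (grey) spread around 0 on both axes.

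By number, the pheromone response held the most genes called lower of the functional groups read. MATa cells secrete a-factor, display the receptor for the alpha-factor of the other mating type, and signal through a kinase cascade that stops the cell cycle. Of 20 pheromone response genes tested, of 34 listed, 7 were called lower and 1 higher, with a median of -0.96, against 0.00 over all genes tested. MFA1, one of the genes for a-factor, had ratios of -2.28, -2.05 and -2.23, a mean of -2.19 (SE 0.13, adjusted p = 0.00752), so its level was 4.55-fold lower in rpd3Δ cells. MFA2, the second a-factor gene, had -1.81, -1.67 and -1.12, a mean of -1.54 (SE 0.18, adjusted p = 0.0233). STE2, the alpha-factor receptor, had -1.52, -1.83 and -1.62, a mean of -1.66 (SE 0.13, adjusted p = 0.0149). All 3 genes were below -1 on each array. STE6, the transporter that exports a-factor, had -1.31, -1.41 and -0.95, a mean of -1.23 (SE 0.15, adjusted p = 0.0261). The agglutinin gene AGA1, which lets mating cells adhere, had -0.71, -1.08 and -1.18, a mean of -0.99 (SE 0.15, adjusted p = 0.0444).

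Genes of the pheromone signal showed the same direction. SST2, which switches the receptor's G protein off, had ratios of -1.58, -1.59 and -2.17, a mean of -1.78 (SE 0.17, adjusted p = 0.0177). FAR1, the inhibitor that arrests the cell cycle in G1, had -1.08, -1.22 and -1.43, a mean of -1.24 (SE 0.14, adjusted p = 0.0209). TEC1, a transcription factor of filamentous growth that works with the mating factor Ste12p, is not on the list of the group. It had -1.64, -1.31 and -2.15, a mean of -1.70 (SE 0.19, adjusted p = 0.0227). Each of these genes was over 2-fold below wild type on all 3 arrays. The kinase gene FUS3 had -1.05, -0.66 and -1.57 (adjusted p = 0.0638) and the regulator KAR4 -1.23, -1.22 and -0.56 (adjusted p = 0.061), below 0 on each array but not called. BAR1, the protease that cleaves alpha-factor, had -2.73, -2.90 and 0.46, and replicate 3 lay on the other side of 0 (adjusted p = 0.203). Over the group, 12 genes were below 0 and 3 above 0 on all 3 arrays. One of the 3, PRM1, a membrane protein of cell fusion, was called higher with 2.68, 2.44 and 1.10, a mean of 2.07 (SE 0.33, adjusted p = 0.0468), a call lost with the arrays rescaled to one spread (adjusted p = 0.0692).

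The group was also split by mating-type control, with lists drawn up after these values were seen. Genes transcribed in a cells but not in alpha cells gave 4 called lower of 6 tested and a median of -1.60, and genes transcribed in haploid cells of either type gave 3 called lower of 9 tested and a median of -0.99. Probes for the mating-type loci gave no call among 4 tested. HMRA1, whose sequence is also that of the expressed MAT locus in these cells, had -1.06, -0.89 and 0.08, and HMLALPHA2, a gene of the silent HML locus, had -0.30, -0.19 and -0.19. The other gene of that locus, HMLALPHA1, had -4.82 on replicate 1 and 0.24 on replicate 3, values that lie far apart. Both HML genes were chosen after their values were seen.

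**Figure D2:**
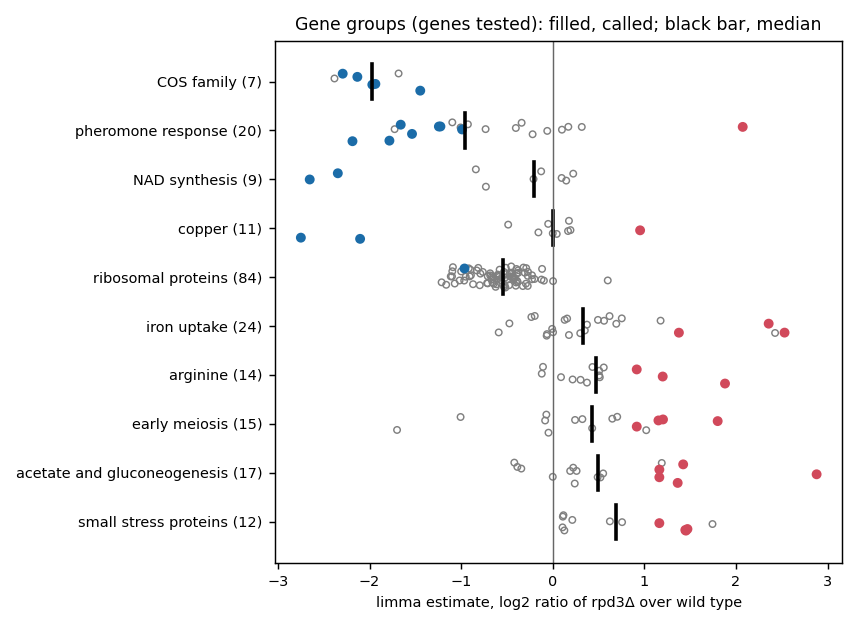
Limma estimates (horizontal axis, log2 ratio of rpd3Δ over wild type) of the genes tested in 10 gene groups, with the number tested in brackets. Filled points are called genes (blue lower, red higher), open points genes not called, and the black bar is the median of the group; the COS family has 5 of 7 genes called lower and the pheromone response group 7 of 20.

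Several of the largest falls lay near chromosome ends. The COS genes are a family of near-identical genes next to the telomeres whose proteins help to sort membrane proteins for breakdown in the vacuole. Of 11 COS genes 7 were tested, 5 were called lower and 0 higher, all 7 were below 0 on each array, and the median was -1.97 (3.92-fold lower). COS7 had ratios of -2.30, -2.61 and -1.97, a mean of -2.29 (SE 0.17, adjusted p = 0.0123). COS4 had -2.33, -2.60 and -1.47, a mean of -2.13 (SE 0.25, adjusted p = 0.0233). COS6 had -1.30, -1.46 and -1.57, a mean of -1.45 (SE 0.13, adjusted p = 0.017). The other called members were COS3 at -2.30, -2.39 and -1.22 and COS2 at -2.17, -2.57 and -1.06. COS1 at -3.0, -3.37 and -0.77 and COS8 at -2.11, -2.33 and -0.60 were not called (adjusted p = 0.0817 and 0.0814), and replicate 3 was closer to 0 than the others. Probes for near-identical copies can bind each other's RNA, so the members are not independent measurements. The lowest estimate of all genes tested was that of YIR043C, a pseudogene 2 places from the end of the right arm of chromosome IX, with -3.39, -5.50 and -2.35, a mean of -3.75 (SE 0.59, adjusted p = 0.0468). With the arrays rescaled to one spread, COS2, COS3 and YIR043C missed the threshold in limma (adjusted p = 0.0626, 0.0526 and 0.0655).

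Position was then read for all genes, from the arm and number in the ORF name. Among the 10 outermost genes of each chromosome arm, 153 were tested, of which 15 were called lower (9.8%) and 3 higher (1.96%), against 28 lower (0.658%) and 109 higher (2.56%) of 4256 genes farther in. Without the listed COS genes the outermost 10 still held 10 genes called lower of 146 (6.85%), a count that includes the pseudogene YIR043C. Those of chromosome ends outside the family included YER186C at -2.75, -2.26 and -1.50, SRY1, an enzyme that breaks down 3-hydroxyaspartate, at -2.07, -2.32 and -1.15, the isomaltase gene IMA2 at -2.39, -1.93 and -1.65 and CSS3 at -1.71, -1.67 and -1.71. These 4 genes were below -1 on every array. CSS3 was chosen after its values were seen. Over the 153 genes, 59 were below 0 and 18 above 0 on all 3 arrays, and the median was -0.39, -0.45 and -0.05 on replicates 1, 2 and 3. For the outermost 5 genes the medians were -0.51, -0.66 and 0.02. Of the seripauperin and related genes PAU1 to PAU20, DAN and TIR, 0 of 24 tested were called, 15 of which are among the outermost 10 of an arm, with 1 above 0 and 1 below 0 on all 3 arrays. PAU21, which is not on that list and lies 2 places from an end, was called higher at 2.02, 2.24 and 1.46, and its probe may bind RNA of other PAU copies. Other genes of arm ends that rose were the zinc transporter ZRT1 and CSS1, both at rank 9 from an end, and CSS1 had 2.54, 2.40 and 1.54.

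**Figure D3:**
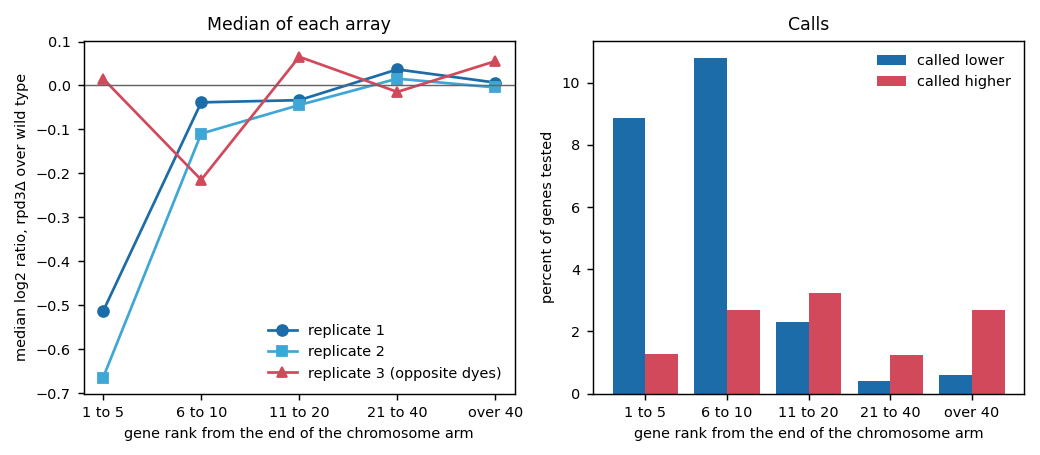
Left, the median log2 ratio of rpd3Δ over wild type (vertical axis) of genes by their rank from the end of a chromosome arm, for each array. Right, the percent of genes tested that were called lower (blue) or higher (red); called lower make up 8.86% of the genes at ranks 1 to 5, 10.8% at ranks 6 to 10 and 0.59% beyond rank 40.

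By chromosome, the medians were near 0, and chromosome VI lay lowest on each array. Its 81 genes had medians of -0.21, -0.21 and -0.22 on replicates 1, 2 and 3, while those of the other 15 chromosomes ran between -0.09 and 0.08, -0.14 and 0.13, and -0.09 and 0.15. With the called genes and the ribosomal protein genes left out, a choice made after the values were seen, the 74 genes left on it had medians of -0.19, -0.19 and -0.13. Called genes were also read beside their neighbours in the RefSeq gene order. Of the 112 genes called higher, 19 (17.0%) stood next to another gene called higher, and of all 4426 genes tested 148 did (3.34%). The pairs included OPI3 and MOG1, SOM1 and PRB1, ARO9 and YHR138C, FMP40 and GRE1, and the run of INH1, LYS20 and MRX19. No gene of the 43 called lower stood next to another called lower, and of all 4426 genes tested only 41 did (0.926%). PXP1 at 1.48, 1.27 and 1.32 and TIM9 at -1.52, -1.39 and -1.76 are neighbours that went opposite ways. The pairs were chosen after their values were seen.

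Genes of NAD synthesis fell in part. The kynurenine pathway makes NAD from tryptophan, and BNA5 and BNA6 encode 2 of its enzymes. BNA5 had ratios of -3.32, -2.88 and -1.75, a mean of -2.65 (SE 0.32, adjusted p = 0.0249). BNA6 had -2.26, -2.48 and -2.29, a mean of -2.35 (SE 0.13, adjusted p = 0.00752). Both were over 3-fold lower in rpd3Δ cells on every array. Other enzymes of the pathway were measured on fewer arrays, BNA4 at -2.42 and -1.56 on replicates 1 and 3, BNA1 at -3.31 and -1.55 on the same arrays, and BNA2 at -1.26 on replicate 1. TNA1, the transporter that takes up nicotinic acid, had -2.16 and -2.58 on replicates 1 and 2. All of these values were below -1. NMA2, also of NAD synthesis and not tested, had only -0.16 and -0.40 on replicates 1 and 2. The genes not tested were chosen after their values were seen. Over the 9 genes tested, of 14 listed, the median was -0.21, and the other 7 were not called. NPT1, a salvage enzyme, had -0.96, -0.98 and -0.24 and was not called (adjusted p = 0.111).

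The metallothionein CUP1, which binds copper, is present in repeated copies, and its 2 entries gave the second and the ninth lowest estimates among called genes. CUP1-2 had ratios of -2.46, -2.89 and -2.90, a mean of -2.75 (SE 0.15, adjusted p = 0.00752). CUP1-1 had -1.26, -2.54 and -2.50, a mean of -2.10 (SE 0.29, adjusted p = 0.0379), and replicate 1 was the closest to 0. The copies share their sequence, so both are readings of the same RNA, and the number of copies in each strain was not measured here. CUP2, the copper-binding activator of CUP1, was called higher at 0.69, 1.12 and 1.05, a mean of 0.95 (SE 0.15, adjusted p = 0.0456). The 8 other copper genes tested were not called.

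Metal uptake genes were among the largest rises. FIT1, FIT2 and FIT3 encode cell wall mannoproteins that hold iron-bearing siderophores. FIT2 had ratios of 2.58, 2.72 and 2.29, a mean of 2.53 (SE 0.14, adjusted p = 0.00752). FIT1 had 2.07, 1.95 and 3.06, a mean of 2.36 (SE 0.25, adjusted p = 0.0204). FIT3 had 3.08, 3.14 and 1.06 and missed the threshold (adjusted p = 0.061), and replicate 3 was well below the other arrays. HMX1, the heme oxygenase that releases iron from heme, had 1.42, 1.40 and 1.31, a mean of 1.38 (SE 0.12, adjusted p = 0.017). SIT1, a siderophore transporter, had 1.58, 1.44 and 0.52 and was not called (adjusted p = 0.0771). In all, 3 of 24 iron genes tested were called higher and 0 lower, with a median of 0.32. Zinc genes, listed after their values were seen, gave 2 called higher and 1 lower of 15. ZRT1, the high-affinity zinc transporter, had 2.54, 2.24 and 2.08, a mean of 2.29 (SE 0.15, adjusted p = 0.00912), and ZAP1, the activator of zinc uptake genes, had 0.92, 0.91 and 1.20. IZH2, also tied to zinc, was called lower at -1.05, -1.46 and -0.86. Of 24 phosphate genes, the phosphatases PHO5 at 1.20, 1.09 and 1.79 and PHO8 at 0.88, 0.84 and 1.01 were called higher and 0 lower, with a median of -0.11.

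Genes held low through Ume6p and Rpd3L in growing cells are a textbook set for this strain. Of 15 early meiosis genes tested, of 33 listed, 4 were called higher and 0 lower, with a median of 0.43. ZIP2, which helps to pair chromosomes, had ratios of 1.57, 1.94 and 1.90, a mean of 1.80 (SE 0.14, adjusted p = 0.0139). SPO16, its partner in crossing over, had 1.14, 1.06 and 1.26, a mean of 1.15 (SE 0.13, adjusted p = 0.021). IME2, the kinase that drives entry into meiosis, had 1.25, 0.80 and 1.56, a mean of 1.20 (SE 0.19, adjusted p = 0.0456). SPO11, which cuts DNA to begin recombination, had 0.98, 1.12 and 0.66. All 4 were above 0.6 on every array. The group was not uniform. The helicase gene HFM1 had -1.72, -2.55 and -0.82 (adjusted p = 0.0715) and ZIP1, of the synaptonemal complex, had 1.5, 1.04 and 0.53 (adjusted p = 0.08). Of 11 later sporulation genes, 1 was called, AMA1, an activator of the anaphase-promoting complex, at 0.74, 0.78 and 0.77. UME6 itself had 1.49 and 1.47 on replicates 1 and 2, values looked up after the others were seen.

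INO1, the inositol synthesis gene whose promoter is a classic site of Rpd3p, had 3.24 and 4.84 on replicates 1 and 2 and no value on replicate 3, so it was not tested. OPI3, which methylates phospholipids on the way to phosphatidylcholine, had 2.02, 1.94 and 2.46, a mean of 2.14 (SE 0.16, adjusted p = 0.0123). It was the 1 gene called among 17 inositol and phospholipid genes, whose median was 0.04, and CHO1, phosphatidylserine synthase, had 0.54, 0.31 and 1.01 (adjusted p = 0.126). Of 14 arginine genes, 3 were called higher and 0 lower, with a median of 0.47. ARG1, of arginine synthesis, had 2.17, 1.93 and 1.54, a mean of 1.88 (SE 0.17, adjusted p = 0.017). CAR1, the arginase that begins arginine breakdown, had 1.30, 1.24 and 1.06, a mean of 1.20 (SE 0.13, adjusted p = 0.0204), and PUT1, of proline breakdown, had 0.73, 0.93 and 1.09. Genes of synthesis and of breakdown were thus both higher. Among 13 vitamin B6 and thiamine genes tested, whose median was 0.03, 1 was called higher and 0 lower. This was SNZ1, of vitamin B6 synthesis, with 2.62, 2.49 and 2.71, a mean of 2.60 (SE 0.13, adjusted p = 0.00752). The values of its relative SNZ2, which lies near RPD3, are given with that gene.

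**Figure D4:**
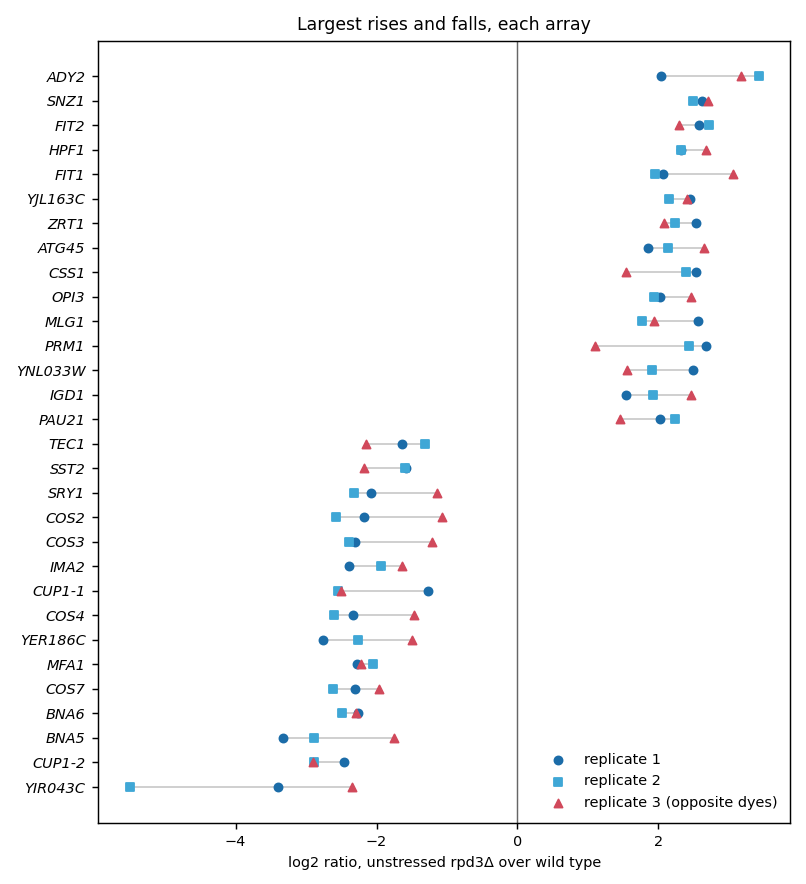
Log2 ratio of rpd3Δ over wild type (horizontal axis) on each of the 3 arrays for 30 called genes, the 15 of highest and the 15 of lowest limma estimate. All 3 arrays of each gene lie on one side of 0, from ADY2 at 2.04, 3.43 and 3.17 at the top to YIR043C at -3.39, -5.50 and -2.35 at the bottom.

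Genes for the use of carbon sources other than glucose rose in part in rpd3Δ cells, with both strains on glucose medium. Of 17 genes of acetate use and gluconeogenesis, 5 were called higher and 0 lower, with a median of 0.49. ADY2, an acetate transporter and the largest rise of all genes tested, had ratios of 2.04, 3.43 and 3.17, a mean of 2.88 (SE 0.29, adjusted p = 0.0193). CYB2, which oxidizes lactate, had 1.32, 1.24 and 1.72, and ALD4, the mitochondrial aldehyde dehydrogenase that makes acetate, had 1.28, 1.20 and 1.01. CIT2, the citrate synthase of the glyoxylate cycle, had 1.52, 1.17 and 1.41 and CAT2, carnitine acetyltransferase, 1.13, 0.80 and 1.56. ACS1, acetyl-CoA synthetase, had 0.96, 0.84 and 1.77 and was not called (adjusted p = 0.0636). Genes of gluconeogenesis and the glyoxylate cycle that were not tested went both ways. PCK1 had -1.013 on replicate 1, and ICL1 had -0.37 and -0.39 on replicates 1 and 2. On replicate 3, MLS1 had -0.08 and FBP1 had 1.045. These untested genes were chosen after their values were seen. SNF3, a sensor of low glucose, was called higher at 1.01, 0.94 and 1.16, as 1 of 14 hexose transport and phosphorylation genes, whose median was -0.37. Of 11 fatty acid oxidation genes 0 were called, although 6 were above 0 and 0 below 0 on all 3 arrays. Among them the peroxisomal membrane protein gene PEX11 had 0.71, 0.68 and 1.32 (adjusted p = 0.072).

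Among the groups of stress genes, some held calls and others none. Of 12 genes for hydrophilins and other small stress proteins, 4 were called higher, SPG5 at 1.45, 1.20 and 1.76, GRE1 at 1.55, 1.60 and 1.22, TMA10 at 1.02, 1.44 and 1.89 and HOR7 at 0.95, 1.04 and 1.5. The group's median was 0.69, and 0 were called lower. Of 21 chaperone genes, the small heat shock protein gene HSP26 at 1.06, 1.66 and 2.27 and the membrane protein gene HSP30 at 1.06, 0.95 and 1.69 were called higher, while HSP42, another small heat shock protein, had 1.10, 1.30 and 0.47 and was not called (adjusted p = 0.0789). The trehalase gene ATH1 was called higher at 1.12, 0.90 and 0.67, as 1 of 7 trehalose genes, whose median was 0.26. No gene was called among 31 of oxidative defence (median -0.01), 11 of glycogen metabolism (0.42) or 29 of the proteasome (-0.18). Of the 29 proteasome genes, 16 were below 0 and 1 above 0 on all 3 arrays, against 24.9% below 0 over all genes. Of the glycogen genes, 9 of 11 were above 0 on all 3 arrays, against 26.1% over all genes. The inhibitor of glycogen debranching, IGD1, rose nevertheless, at 1.54, 1.93 and 2.46.

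Vacuolar breakdown genes, listed after their values were seen, gave 5 called higher and 0 lower of 33, with a median of 0.45, and 19 of them were above 0 on all 3 arrays. PRB1, vacuolar protease B, had ratios of 1.69, 1.53 and 1.33, and PBI2, its inhibitor, had 1.44, 1.66 and 1.40. ATG7, the enzyme that activates ubiquitin-like proteins in autophagy, had 1.45, 1.20 and 1.46, ATG33, of mitochondrial autophagy, 1.13, 1.07 and 1.43, and RNY1, a vacuolar RNase, 0.98, 0.97 and 0.73. A protease and its inhibitor were thus raised by similar amounts. ATG8, the ubiquitin-like protein of autophagosomes, had 0.51, 0.61 and 1.43 and was not called (adjusted p = 0.107). GABA and amino acid breakdown genes, also listed afterwards, gave 5 called higher and 0 lower of 14, with a median of 0.03 and 6 above 0 on all 3 arrays, while UGA4, a GABA transporter, had -1.90, -2.33 and -0.62 and was not called (adjusted p = 0.0806). UGA2, succinate semialdehyde dehydrogenase, had 2.04, 1.68 and 1.81, and GAD1, glutamate decarboxylase, 1.30, 1.26 and 1.34. ARO9, an aromatic aminotransferase, had 1.28, 1.11 and 1.22, and CAR1 and PUT1 are given above. The cell wall mannoprotein gene HPF1 was called higher at 2.32, 2.32 and 2.67, with PIR3 at 0.97, 0.78 and 0.93, among 30 cell wall genes of which 2 were higher and 1 lower.

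Many called genes belonged to none of the groups, 68 higher and 23 lower. Among the largest rises were YJL163C at 2.45, 2.15 and 2.40, ATG45 at 1.86, 2.14 and 2.65, MLG1 at 2.57, 1.77 and 1.94 and YNL033W at 2.50, 1.91 and 1.55. The first of these differed little between arrays, and all were over 2-fold higher on each array.

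Ribosomal protein genes lay below wild type as a group, with 1 call. Of 84 cytosolic ribosomal protein genes tested, of 137 listed, 75 were below 0 and 0 above 0 on all 3 arrays, against 24.9% below 0 over all genes. Their median was -0.55 (1.46-fold lower), and their mean was -0.50, -0.30 and -0.93 on replicates 1, 2 and 3. RPP2A, a stalk protein of the large subunit, was the 1 gene called, at -0.91, -0.83 and -1.16, a mean of -0.97 (SE 0.14, adjusted p = 0.0385), and it was not called without replicate 1 or without replicate 2 (adjusted p = 0.0559 and 0.0515). RPL18B had -0.66, -0.36 and -2.46 and was not called (adjusted p = 0.181), with replicate 3 far below the others. The methods of the study state that the rpd3Δ strain grew more slowly than wild type, and the part of growth rate in these ratios was not tested. Of 62 ribosome assembly genes and 62 mitochondrial ribosomal protein genes 0 were called, with medians of -0.08 and -0.13, and 15 of the ribosome assembly genes were below 0 and 11 above 0 on all 3 arrays. Genes for purine synthesis gave 0 calls of 21 at a median of -0.44, with 12 below 0 and 2 above 0 on all 3 arrays. Among them IMD2, of GTP synthesis, missed the threshold with -3.32, -1.76 and -1.43 (adjusted p = 0.0591). Histone genes gave 0 of 11 at a median of -0.36, with 7 below 0 and 1 above 0 on all 3 arrays. Among 30 ergosterol genes, ERG26, a sterol dehydrogenase, was called lower at -0.77, -1.01 and -0.93. Groups with 0 calls also included 26 genes of oxidative phosphorylation (median -0.21), 24 of sulfate and methionine metabolism (0.18), 10 of the DNA damage response (0.25) and 7 of glycolysis (-0.27). Of the 26 oxidative phosphorylation genes, 14 were below 0 and 3 above 0 on all 3 arrays. The 1 call among 18 cell cycle genes was FAR1, and the 1 call among 15 multidrug resistance genes was the transporter AZR1, higher at 0.80, 0.72 and 0.87.

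Of the 18 listed genes of the Rpd3 complexes, 14 were tested, 0 were called, and the median was 0.19. UME6 was not among those tested, and its values on replicates 1 and 2 are given above. TOS4, a forkhead protein bound to Rpd3L, had the largest estimate of the group at 0.72, 0.82 and 0.32 (adjusted p = 0.101). ASH1, a repressor that works with Rpd3L, had 0.50, 0.60 and 0.08, and SAP30, an Rpd3L subunit, had 0.39, 0.84 and -0.07. Of 13 other deacetylase and corepressor genes 0 were called. Genes whose promoters the study examined by chromatin immunoprecipitation were read as well. UBC5, a ubiquitin-conjugating enzyme, was called higher at 1.08, 1.12 and 1.08, as was HOR7, given above. YGP1, a cell wall glycoprotein, had 2.53, 2.30 and 0.41, with replicate 3 far below the other arrays (adjusted p = 0.101). XKS1, xylulokinase, had 0.63, 0.48 and 0.40 (adjusted p = 0.106), and YPR127W 0.31, 0.50 and 0.60 (adjusted p = 0.124). GAR1, of ribosomal RNA modification, had -0.27, -0.27 and -0.12 and RPL16A -0.35, -0.28 and -0.18, both slightly below 0 and not called. TSA2, a peroxiredoxin, had 0.41, 0.68 and 0.16 and DDR2, a stress gene, 0.33, -0.15 and 0.47, also not called.

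Finally, the called genes were looked up on other arrays, on which cells treated with H2O2 for 30 min are set against unstressed cells of the same strain. In wild type, where 8 arrays were tested with limma at a false discovery rate under 0.01, H2O2 raised 1385 of 4150 genes tested in both comparisons (33.4%) and lowered 1396 (33.6%). Of the 98 genes called higher in unstressed rpd3Δ cells that were tested there, 76 rose (77.6%) and 8 fell in H2O2-treated wild type. Of the 42 called lower, 13 rose (31.0%) and 14 fell (33.3%), close to the shares over all genes. Unstressed wild-type RNA is the denominator of both ratios, and whether any of it came from shared cultures is not given in the sources used here. Unstressed rpd3Δ RNA, by which the genes were chosen, is the denominator of the H2O2 ratio in rpd3Δ cells, so a smaller rpd3Δ ratio for genes called higher and a larger one for genes called lower is in part built into the choice. The median change of the genes called higher, taken on each array, was 0.63 ± 0.10 (SD, n = 3) in rpd3Δ and 1.52 ± 0.33 (SD, n = 8) in wild-type cells, each relative to its own unstressed cells. The lowest, median and highest arrays were at 0.53, 0.63 and 0.72 in rpd3Δ and 0.79, 1.56 and 1.89 in wild-type cells. These values describe the chosen genes, and the difference between strains was not tested. The genes called lower had array medians of -0.32, -0.18 and -0.15 in rpd3Δ cells, against a lowest, median and highest of -0.14, -0.05 and 0.18 in wild-type cells. For the genes called higher, wild-type replicate 8, at 0.79, lay far from the other wild-type arrays, and without it 80.2% of 101 genes rose. Over all 4150 genes the medians were 0.07 ± 0.06 (SD, n = 3) in rpd3Δ and 0.00 ± 0.05 (SD, n = 8) in wild-type cells.

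**Figure D5:**
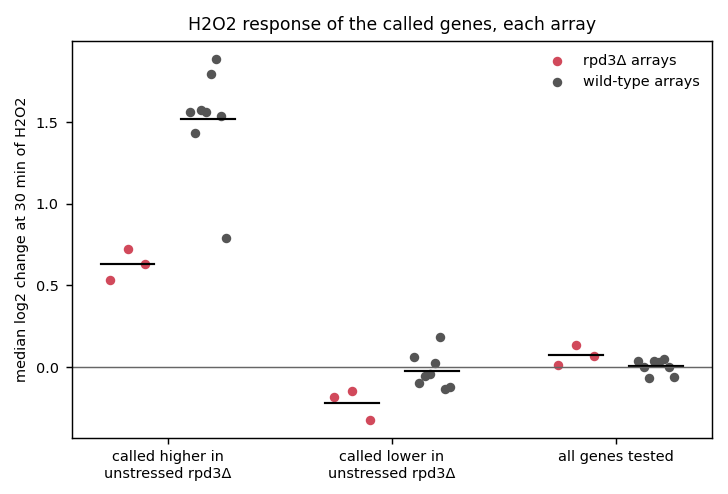
Median log2 change at 30 min of H2O2 over unstressed cells of the same strain (vertical axis) for genes called higher, called lower and all genes tested in the unstressed comparison. Each point is 1 array, with the 3 rpd3Δ arrays (red) left of the 8 wild-type arrays (grey) and the mean as a black line; for the genes called higher, the rpd3Δ arrays lie between 0.53 and 0.72 and the wild-type arrays between 0.79 and 1.89.

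Single genes show the range of these responses. HSP26 changed by 3.21 ± 0.28 (SD, n = 3) in rpd3Δ and 4.85 ± 0.65 (SD, n = 8) in wild-type cells, a strong rise in both strains. PRB1 changed by -0.21 ± 0.40 (SD, n = 3) in rpd3Δ and 2.15 ± 0.69 (SD, n = 8) in wild-type cells, and UGA2 by 0.76 ± 0.14 (SD, n = 3) in rpd3Δ and 2.48 ± 0.35 (SD, n = 8) in wild-type cells. OPI3 changed by 0.32 ± 0.14 (SD, n = 3) in rpd3Δ and 1.5 ± 0.40 (SD, n = 8) in wild-type cells. For HSP26, PRB1, UGA2 and OPI3, whose unstressed level was higher in rpd3Δ cells, the wild-type rise was larger than the rpd3Δ change. The rpd3Δ mean lay below the wild-type mean for 83 of the 98 genes called higher, and for 1973 of all 4150 genes. The zinc transporter gene ZRT1 changed by -2.49 ± 0.17 (SD, n = 3) in rpd3Δ and -1.70 ± 0.35 (SD, n = 8) in wild-type cells, and FIT1 changed by -3.15 ± 0.41 (SD, n = 3) in rpd3Δ and -0.32 ± 0.64 (SD, n = 7) in wild-type cells. ZRT1 and FIT1, high in unstressed rpd3Δ cells, thus fell from that level after H2O2, and ZRT1 fell in wild-type cells as well. Other metal genes called higher differed among themselves. FIT2 changed by 0.12 ± 0.36 (SD, n = 3) in rpd3Δ and 1.72 ± 0.91 (SD, n = 8) in wild-type cells. HMX1 changed by 2.25 ± 0.39 (SD, n = 3) in rpd3Δ and 2.69 ± 0.76 (SD, n = 8) in wild-type cells. ZAP1 fell in both, by -0.67 ± 0.20 (SD, n = 3) in rpd3Δ and -1.10 ± 0.31 (SD, n = 7) in wild-type cells. These ratios do not compare the levels of treated cells between strains. Among genes called lower, YIR043C changed by -0.44 ± 0.17 (SD, n = 3) in rpd3Δ and 0.71 ± 0.22 (SD, n = 8) in wild-type cells, COS3 by -0.38 ± 0.08 (SD, n = 3) in rpd3Δ and 0.33 ± 0.16 (SD, n = 8) in wild-type cells and COS2 by -0.41 ± 0.10 (SD, n = 3) in rpd3Δ and 0.40 ± 0.23 (SD, n = 8) in wild-type cells. For YIR043C, COS3 and COS2 every rpd3Δ array lay below every wild-type array, as it did for 9.05% of 4145 genes with at least 2 rpd3Δ arrays. The a-factor gene MFA1, at -0.41 ± 0.18 (SD, n = 3) in rpd3Δ and -0.56 ± 0.29 (SD, n = 8) in wild-type cells, showed no such gap. The second a-factor gene, MFA2, did show it, at -2.67 ± 0.41 (SD, n = 3) in rpd3Δ and -1.48 ± 0.60 (SD, n = 8) in wild-type cells. COS6 did not, at -0.33 ± 0.30 (SD, n = 3) in rpd3Δ and 0.04 ± 0.29 (SD, n = 8) in wild-type cells.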

How the data were processed

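The deposited table holds 1 log2 ratio per gene and array, as the authors prepared it from 2-colour arrays. Background correction, normalization, the direction of the dyes in the ratio and the reason for empty cells are not given in the sources used here. The direction was taken from the array titles, and arrays of both dye orientations correlated above 0. Columns titled rpd3 vs WT with numbers 1 to 3 were used as deposited. Genes measured on all 3 arrays were tested against 0 with limma 3.58.1 (R 4.3.3), without weights or a dye term, and p-values were adjusted by the method of Benjamini and Hochberg over 4426 genes, with calls at a false discovery rate under 0.05. The script was tested on simulated data. For H2O2, genes on at least 80% of the wild-type arrays were tested in the same way, at 0.01. Python 3.11.15 was used for the rest.

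Symbols came from the RefSeq table of assembly R64 (5832 of 6297 names matched), and the other names are ORF names. Positions are ranks of ORF numbers on an arm. Promoter and protein sequences were not analysed here. Genes named are RPD3 and its neighbours, the 15 largest rises and falls among called genes, called members of each list (up to 6) with up to 3 that were not called, the genes whose promoters the study measured and the marker genes. Others are said to be chosen after their values were seen. The members and lists were chosen with earlier results of these data known. The lists of a-specific, haploid-specific, mating-type, zinc, vacuolar and amino acid breakdown genes were added after these values were seen. The number of arrays limits the precision. Alternatives were 2 rescalings of the arrays, genes on at least 2 arrays, a dye term, other thresholds, fold rules without a test, and each replicate left out.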

Additional observations from a re-analysis of the deposited data

Results flagged for a closer look

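Genes called higher in unstressed rpd3Δ cells had a median change at 30 min of H2O2 of 0.791 on wild-type replicate 8, against 1.43 to 1.89 on the other 7 wild-type arrays. Its gap to the nearest array was past Dixon's 95% limit for 8 samples, a limit that chance passes in about 1 in 20 groups. Without this array, limma called 81 of 101 genes (80.2%) as raised by H2O2 in wild type, with a median change of 1.52.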

How the results depend on the processing

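Genes called numbered 189 to 1542 when each replicate was left out in turn (105 to 802 higher, 84 to 740 lower), and the highest counts came without replicate 3, which left a single dye orientation. Of the 155 genes, 112 stayed called without replicate 1, 97 without replicate 2 and all 155 without replicate 3. A dye term gave 1959 calls (956 higher, 1003 lower). Replicate 3 alone has its dye orientation, so this fit took the spread from replicates 1 and 2 only. It leaves out the disagreement with replicate 3, and its count cannot be set against the 155. Genes on at least 2 arrays gave 93 (67 and 26), 84 of them among the 155, and 25 named genes, HSP26 and PHO5 among them, missed the threshold there. Thresholds of 0.01 and 0.10 gave 9 (6 and 3) and 443 (287 and 156). With no test, over 1.5-fold on every array gave 222 (150 and 72). Over 1.5-fold on at least 2 arrays, a rule added after the data were seen, gave 662 (398 and 264). Median-centring gave 140 calls, 139 of them among the 155, and rescaling gave 149, 123 of them among the 155. The share called lower among the outermost 20 genes of an arm was 5.41%. Without replicate 1 and also without replicate 2, the calls of PHO8, ERG26, AMA1, SPO11, PIR3, PUT1, RPP2A, RNY1, AZR1 and ATH1 were lost, and without replicate 2 also those of CUP2, AGA1 and IZH2. With arrays rescaled, COS2, COS3, YIR043C, SRY1 and PRM1 were among 10 named genes that missed the threshold. PEX6, beside RPD3 and not called, moved between -0.22 and 0.0010. The cause of these differences was not tested. No paired analysis was possible because RNA of both strains with one replicate number lay on the same array, so that each ratio already is the difference within a pair.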
